A study of Drosophila melanogaster with 4 samples.

Results

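The odorant (Or), gustatory (Gr) and ionotropic (Ir) receptor genes of Drosophila melanogaster were examined for RNA polymerase II phosphorylated on serine 5 of its C-terminal repeats, a modification that is richest near start sites. The genes were taken by symbol, as protein-coding genes whose symbol starts with Or, Gr or Ir and a digit and that lie on chromosome arms 2L, 3R and X. There were 98 of them among 8207 protein-coding genes placed on these arms, and 81 further genes of the 179 with such symbols lie on other arms and were not analysed here. They comprised 33 Or, 36 Gr and 29 Ir genes, with 31 on 2L, 42 on 3R and 25 on X.

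ChIP-seq was done on Kc167 cells, a female cell line of genotype se/e that was derived from late embryos, without any treatment named in the labels. The series holds 2 ChIP libraries made with a rabbit polyclonal antibody to the phosphorylated repeat and 2 libraries of input DNA. Each ChIP library came with a list of called regions, and the authors deposited 1 more list that covers both, here called the combined list. No region list of the input libraries was analysed here, the sequencing depth is unknown, and the labels do not say whether the replicates were separate cultures, so the spread between them may be technical. Enriched regions, those with a score above 0, numbered 2795 on the 3 arms in the combined list and covered 16.1% of the arm bases. Replicate 1 had 2720 such regions, which covered 14.5%, and replicate 2 had 2682, which covered 14.7%.

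Odorant receptors are membrane channels of olfactory sensory neurons that work together with the shared co-receptor Orco. Gustatory receptors serve mainly in taste neurons, where they detect sugars or bitter compounds, and a few detect carbon dioxide or warmth. Ionotropic receptors are relatives of the glutamate-gated channels, detect acids, amines, temperature and humidity, and work with broadly used co-receptors such as Ir25a and Ir8a. Most of these genes are known mainly from sensory neurons, a cell type that Kc167 cultures are not known to hold. Kc167 cells are usually described as resembling blood cells.

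Positions of the genes belong to release 6 of the genome and those of the regions to release 5, so gene positions were shifted by a constant for each arm: 0 on 2L, 4174278 bp on 3R and 105967 bp on X. At these offsets, 42.3% of the gene ends of all protein-coding genes on 2L lay in combined regions, 43.8% on 3R and 45.9% on X. With further shifts of 10 to 20 kb in either direction the shares averaged 23.9%, 23.2% and 24.0%. The share was highest at the offset itself on 2L and 3R and 250 bp away from it on X. Further shifts of 500 bp gave between 41.9% and 45.3%, so misplacements of that size could not be seen. In bins of 1 Mb, 57 of 74 had their highest share within 500 bp of the offset, and 78 of the 98 receptor genes lie in these 57. In 73 of the 74 bins the share at the offset exceeded the mean at shifts of 10 to 20 kb. The offset was in doubt near the inner ends of X and 2L. On X, 73.4% of the gene ends at 19.5 to 19.75 Mb lay in regions, but past 19.75 Mb the share was 16.5%, against 15.4% with shifts of 10 to 20 kb. Or19a, Or19b and Ir20a lie there. On 2L past 22 Mb the share was 26.6%, against 18.3% with such shifts, and Ir40a lies there.

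**Figure D1:**
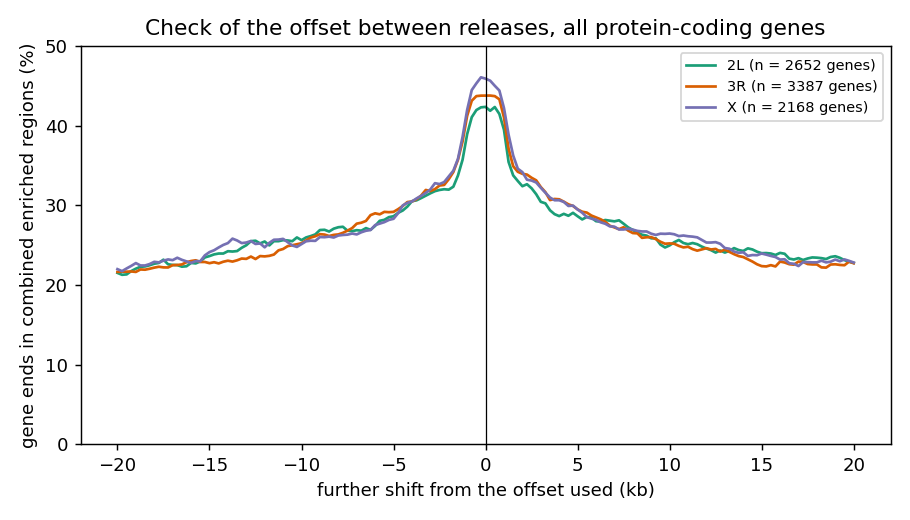
Percent of gene ends of all protein-coding genes that lie in combined enriched regions (y axis) when the gene positions of 2L, 3R and X (lines) are moved further from the offset used (x axis, kb). Each arm has a single peak at or next to 0, with 42.3%, 43.8% and 45.9% at the offset.

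Few receptor genes were reached by regions enriched for the Ser5-phosphorylated polymerase. The gene table gives no strand, so a start site could not be told from the other end of a gene, and each gene was counted by its ends. Of the 98 receptor genes, 10 had at least 1 end in an enriched region, a count that was the same in all 3 lists. The share was 10.2%, against 57.1% of all protein-coding genes in the combined list and 55.6% in each replicate list. If a gene starts at 1 of its ends as placed, its start site lay in a region in at most these 10 genes and in at least the 3 genes with both ends in regions (3.06% in each list), against 30.6% of all protein-coding genes in the combined list and 27.2% and 27.1% in replicates 1 and 2. At least 1 base lay in a region in 11 receptor genes (11.2%) in each list, against 58.5% of all protein-coding genes in the combined list and 57.0% in each replicate list. Of all receptor gene bases, 6.35% were covered in the combined list and 5.56% ± 0.228 in the replicate lists (SD, n = 2), against 19.4% and 17.5% ± 0.276 (SD, n = 2) for all protein-coding genes. The gap exceeds the spread between the replicate lists, but that spread does not measure how covered shares vary between sets of genes. The design has a single condition and no control list, so no test over samples could be made, and a gene outside the regions is one that the authors' threshold did not reach, not one shown to be without polymerase.

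**Figure D2:**
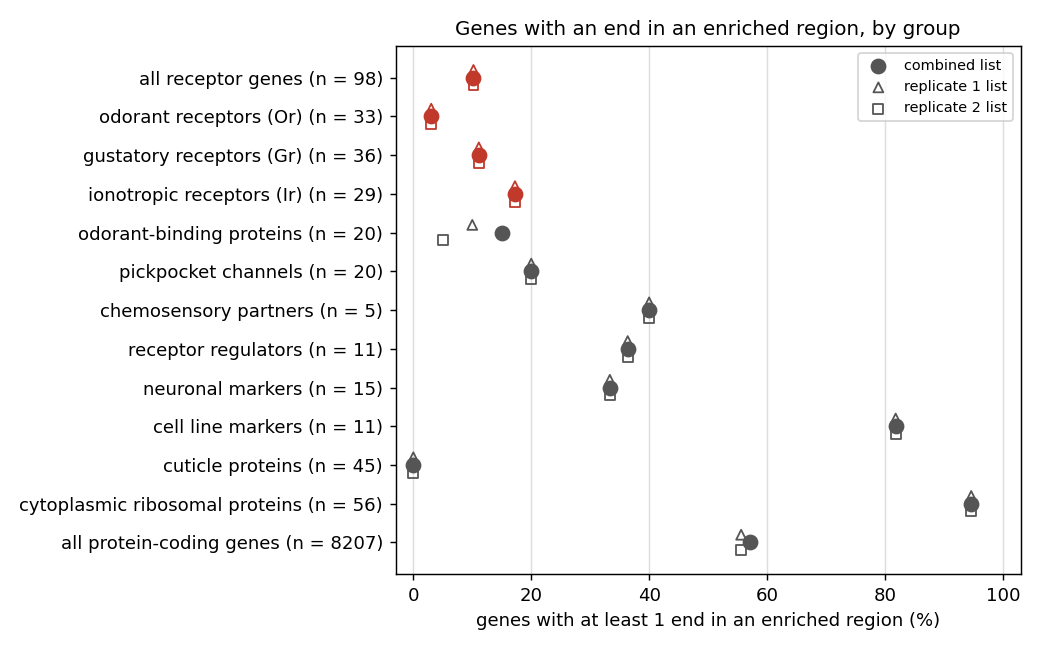
Percent of genes with at least 1 end in an enriched region (x axis) for the receptor genes and their families (red) and for other gene lists and all protein-coding genes (grey), with filled circles for the combined list and open triangles and squares for replicates 1 and 2. The receptor genes lie at 10.2% in all 3 lists and all protein-coding genes at 57.1% in the combined list.

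Counts were small in each family, and differences between families were not tested. In the combined list, 58.5% of all protein-coding genes had a covered base, and 19.4% of their bases were covered. Among the Ir genes 6 of 29 had a covered base, among the Gr genes 4 of 36 and among the Or genes 1 of 33. The covered share of their bases was 9.46% for Ir, 5.58% for Gr and 1.49% for Or genes in the combined list, and 7.83% ± 0.411, 5.51% ± 0.0742 and 1.36% ± 0.0827 in the replicate lists (SD, n = 2). Without the genes whose placement was in doubt, the combined shares were 6.62% for 27 Ir, 5.58% for 36 Gr and 1.57% for 31 Or genes. By arm, 4 of 25 receptor genes on X had an end in a region (16.0%), against 60.2% of all protein-coding genes there. On 3R it was 4 of 42 (9.52%), against 57.8%, and on 2L 2 of 31 (6.45%), against 53.8%. Receptor genes are short: their median length was 1532 bp, against 2176 bp for all protein-coding genes. Of 71 receptor genes from 1000 to under 2000 bp long, 5 had an end in a region (7.04%), against 55.2% of all protein-coding genes of that length. Of 45 receptor genes within 10 kb of another receptor gene, 2 had an end in a region (4.44%). Of the 53 that stood farther apart, 8 did (15.1%), against 57.1% of all protein-coding genes.

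The ionotropic co-receptors were among the genes reached. Ir25a, the most broadly used co-receptor of the family, had 766 and 775 covered bp in replicates 1 and 2 and 783 bp in the combined list, out of 4455 bp. The values differed little between the lists. The region lay on 2L at 4828942 to 4831628 (release 5, as are all positions here) and scored 1.18, and 29.1% of it fell in Ir25a. It also held an end of Fnta, the alpha subunit of protein farnesyltransferase, 153 bp from the end of Ir25a, and an end of CG15628. Ir8a, the co-receptor of acid-sensing receptors, had 540, 549 and 556 covered bp in replicate 1, replicate 2 and the combined list, out of 3860 bp. Its region on X at 9124558 to 9127314 scored 0.96 and held an end of CG12121 at a distance of 348 bp from the end of Ir8a.

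Ir93a, which acts in sensing of cooling and humidity, had 1539, 1556 and 1586 covered bp in replicate 1, replicate 2 and the combined list, out of 8237 bp. The region, on 3R at 16675248 to 16679016, scored 2.20, higher than 80.2% of the combined regions of the 3 arms, or equal to them. Its middle lay 17 bp from an end of RpS30, a ribosomal protein gene, and 299 bp from the end of Ir93a. Ir31a was reached from both sides, with 1328, 1381 and 1376 covered bp in replicate 1, replicate 2 and the combined list, out of 2633 bp. On 1 side the region at 10402040 to 10406018 of 2L scored 0.88 and held ends of CG17768, Cnot4 and LSm-4, a gene for an RNA-binding protein of the splicing machinery. On the other side the region at 10407276 to 10415094 scored 2.49 and held ends of RpS27A, Ip259, CG5355 and Klp31E. The middle of Ir31a between these regions was not covered. Ir7g had 340, 337 and 386 covered bp in replicate 1, replicate 2 and the combined list, out of 2317 bp. Its region on X at 7780624 to 7784160 scored 1.80, held ends of Acat1, an enzyme of acetyl-CoA metabolism, and of the kinase gene Nek2, and had 10.9% of its bases in Ir7g.

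Ir40a, a receptor for dry air, was the only receptor gene with covered bases but no end in a region. It spans 24851 bp and had 2826, 3307 and 4522 covered bp in replicate 1, replicate 2 and the combined list. The region at 22190262 to 22193600 of 2L scored 0.75 and was found in all 3 lists. A further region at 22205278 to 22206460 scored 1.92 and was in the combined list only. Both lay wholly inside the placed span of Ir40a, and no other gene of the table, coding or noncoding, overlapped them. Ir40a is among the genes whose placement was in doubt. Without the 4 genes in doubt, 10 of 94 receptor genes had a covered base and 4.93% of their bases were covered.

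Of the gustatory receptors, Gr94a was covered over its whole length of 1215 bp in all 3 lists. It lies inside p53, the tumour suppressor homologue, and the region at 18876002 to 18880164 of 3R, with a score of 1.58, also held ends of p53 and of Ctns, the cystinosin gene. Gr97a had 1150, 1171 and 1181 covered bp in replicate 1, replicate 2 and the combined list, out of 1362 bp. Like Ir31a it was reached from both sides: the region at 22789346 to 22791490 of 3R scored 0.93 and held an end of the tetraspanin gene Tsp97E, and the region at 22791672 to 22793870 scored 1.28 and held an end of CG5521. Gr2a had 1011, 1062 and 1055 covered bp in replicate 1, replicate 2 and the combined list, out of 1748 bp. Its region on X at 1347156 to 1350120 scored 0.30, the lowest score among the regions at receptor genes, and held ends of CG14785 and of futsch, which encodes a microtubule-binding protein of neurons and overlaps Gr2a in the table. Gr5a, a receptor for the sugar trehalose, had 307, 306 and 315 covered bp in replicate 1, replicate 2 and the combined list, out of 1872 bp. Its region on X at 5572744 to 5574964 scored 1.23 and held an end of Tre1, a G protein-coupled receptor of migrating germ cells, 640 bp from the end of Gr5a.

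The only odorant receptor reached was Or85f, known for responses to the odor of parasitoid wasps. It had 669, 729 and 768 covered bp in replicate 1, replicate 2 and the combined list, out of 1362 bp. The region on 3R at 5224506 to 5228466 scored 2.22 and held ends of CG34117, which lies 19 bp from the end of Or85f, and of RpL34b, CG8132 and CG9356. No Or gene had both ends in regions.

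**Figure D3:**
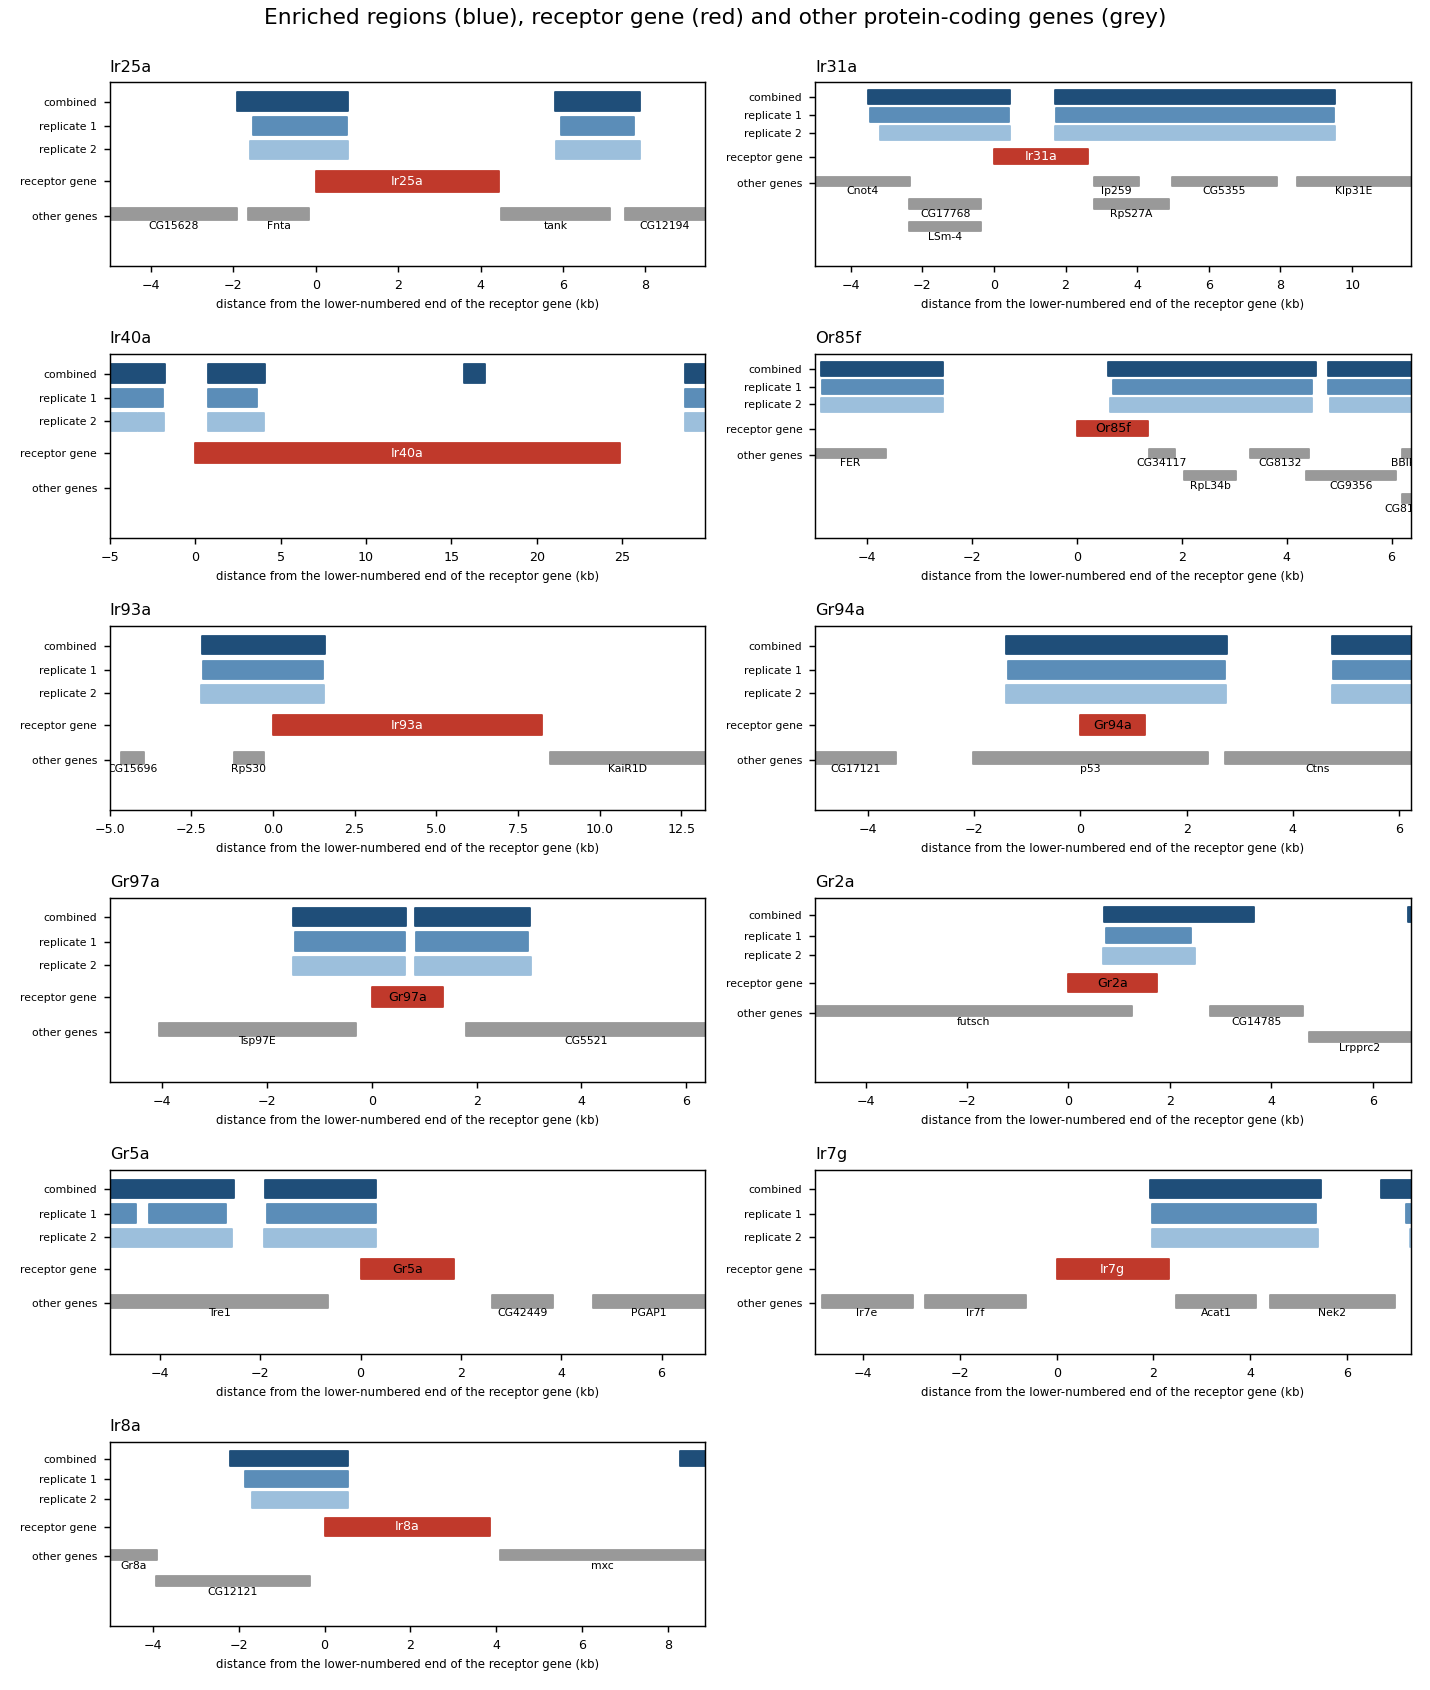
Map of the 11 receptor genes with covered bases, with enriched regions of the combined list and of replicates 1 and 2 (blue bars), the receptor gene (red) and other protein-coding genes (grey), against the distance from the lower-numbered end of the receptor gene (x axis, kb). In 10 of the 11 panels a region that covers an end of the receptor gene also covers an end of a neighbouring gene, and in the panel of Ir40a the regions lie inside the gene.

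Each of the 10 receptor genes with an end in a region shared that region with an end of another protein-coding gene that is no receptor gene, in all 3 lists. Among all 4690 protein-coding genes with an end in a combined region, 92.2% shared it with such an end of another gene, so sharing alone is common. The other gene's end was nearer the middle of the region in 8 of the 10 receptor genes (80.0%). The exceptions were Gr2a and Gr94a. Of the 4690 genes, such an end was nearer in 2729 (58.2%), but only 4326 of them shared a region with one. Some regions held ends of several other genes, which gives another gene's end more chances to be nearer. The 14 combined regions that touched receptor genes had a median score of 1.25, against 1.41 for all combined regions of the 3 arms, and 6 of the 14 scored at or above that value. Among genes with a covered base, the median covered share was 19.3% of the gene for receptor genes and 71.0% for all protein-coding genes.

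Receptor genes far from an occupied end of another gene had no end in a region. For each gene, the distance was taken to the nearest end, lying in a combined region, of another gene that is no receptor gene. This distance had a median of 14.4 kb for receptor genes and 0.723 kb for all protein-coding genes. Within 2 kb of such an end, 10 of 11 receptor genes had an end in a region (90.9%), against 92.4% of all protein-coding genes. Beyond 2 kb, 0 of 87 receptor genes did, against 355 of 3514 protein-coding genes (10.1%). The replicate lists gave 0 of 87 as well, against 9.90% and 9.81% of all protein-coding genes. Ir40a as placed, 5.5 kb from an occupied end, belonged to the 87 of the combined list, with covered bases but no end in a region. Among the 87 were Or10a and Gr10a, 253 bp from a combined region, and Or2a, 264 bp from one. Misplacements of 500 bp could not be seen, so the 0 depends on the exact placement of these genes. A gene that shares its region with another gene's end mostly lies near an occupied end, so this count in part restates the sharing. Regions are several kb wide, so 2 ends close to each other tend to fall in the same region whichever gene it belongs to, and for the 10 genes the polymerase of the receptor gene and of its neighbour cannot be told apart.

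**Figure D4:**
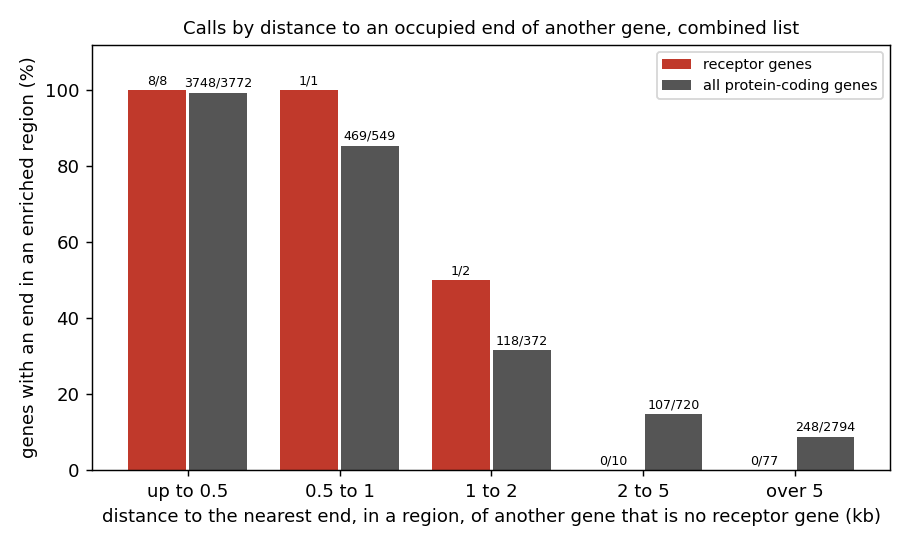
Percent of receptor genes (red) and of all protein-coding genes (grey) with an end in a combined region, by the distance to the nearest occupied end of another gene that is no receptor gene (x axis, kb), with counts above the bars. Beyond 2 kb no receptor gene as placed had an end in a region, against 10.1% of all protein-coding genes.

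The covered share was lower at the ends of receptor genes than 10 kb away from them, and higher at the ends of protein-coding genes as a whole. At 10 kb outside a gene end, 13.8% of the positions at receptor genes and 25.3% of those at all protein-coding genes lay in combined regions. At the ends themselves the shares were 6.63% and 43.9%, and 500 bp inside the gene 5.10% and 45.7%. Within 25 kb on either side, not counting the gene itself, regions covered a median of 9.22% of the bases at receptor genes and 24.1% at all protein-coding genes, and these flanks held no covered base at 31 of 98 receptor genes (31.6%), against 11.2% of all protein-coding genes. The flanks of single receptor genes were covered by up to 78.1%.

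**Figure D5:**
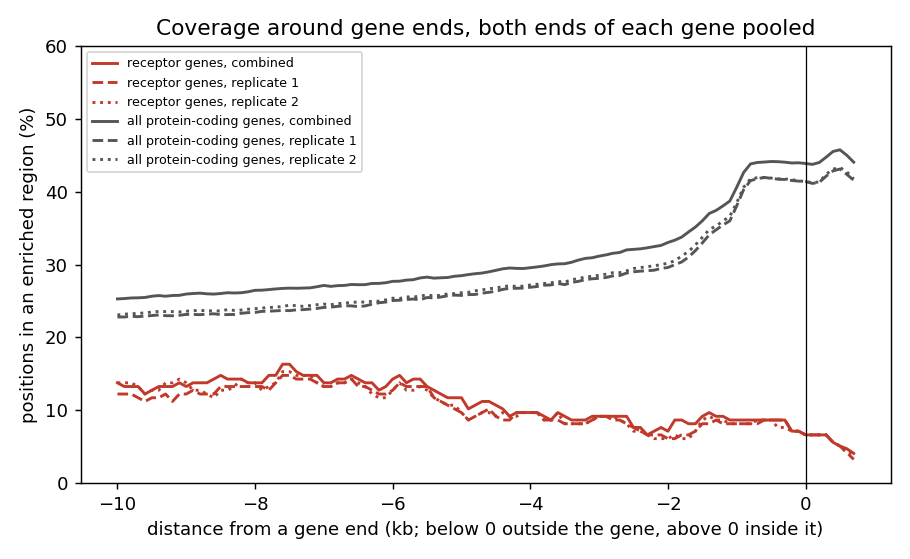
Percent of positions in enriched regions (y axis) by distance from a gene end (x axis, kb, below 0 outside the gene), with both ends of each gene pooled, for receptor genes (red) and all protein-coding genes (grey) in the combined list and replicates 1 and 2 (line styles). The receptor genes are at 6.63% at the end and the protein-coding genes at 43.9% in the combined list.

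The other 87 receptor genes had no covered base in any list. The closest to a region was Or9a, 73 bp away in the combined list and 88 and 83 bp in replicates 1 and 2. Or10a and Gr10a, which share 1 span in the gene table, were 253 bp from a combined region, and Or2a was 264 bp from one. The next distance was 1.70 kb, at Gr8a. Within 10 kb of a combined region lay 45 of the 98 receptor genes (45.9%), against 79.7% of all protein-coding genes. The farthest were 3 neighbours of the Ir94 cluster on 3R, Ir94f, Ir94g and Ir94h, at 120.5, 122.5 and 126.1 kb. Some well-known receptors also stood apart. Gr21a, part of the carbon dioxide receptor, was 26.8 kb from a region, and the antennal cooling receptor Ir21a 33.0 kb. Others, such as Ir25a and Gr5a, were touched by one. Of 11 receptor genes that lie inside a gene that is no receptor gene, only Gr94a was covered (9.09%), near the share of all 98 receptor genes (11.2%). Among 1029 protein-coding genes that lie inside such a gene, 36.1% had a covered base. Of the receptor genes inside another gene, Or85a, inside Poxm, and Or94a and Or94b, inside Nha2, had no covered base. Regions typed as depleted, which have a score below 0, touched 0 receptor genes in each of the 3 lists, against 45 protein-coding genes in the combined list (0.548%) and 18 and 13 in replicates 1 and 2 (0.219% and 0.158%). At such low shares in all protein-coding genes, 0 of 98 does not set the receptor genes apart.

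Other genes of the chemical senses were set beside the receptors, from lists chosen with earlier results of these data known. Of 20 odorant-binding protein genes, which encode carriers of odor molecules, 3 had an end in a combined region (15.0%), and 2 and 1 in replicates 1 and 2. Among all protein-coding genes the share was 57.1% in the combined list and 55.6% in each replicate list. Obp28a was covered over its whole length in all 3 lists, while Obp84a and Obp93a had 7.79% and 12.2% of their bases covered in the combined list. Of 20 pickpocket channel genes, sodium channels of which several act in taste and touch, 4 had an end in a region, namely ppk18, ppk19, ppk8 and ppk28. Of 5 partner genes on the 3 arms, Orco, Snmp1, a membrane protein of pheromone-sensing neurons, and Arr1 had no covered base. The nearest region was 11.9 kb from Orco. The ammonium transporter gene Amt was covered over 46.3% of its bases and norpA, a phospholipase C of light sensing, over 7.94%. Thus 2 of the 5 partner genes had an end in a combined region (40.0%), against 57.1% of all protein-coding genes.

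Genes reported to regulate receptor genes or the neurons that bear them formed another list. Of its 11 members on the 3 arms, 4 had an end in a region (36.4%). The genes zf30C, E2f2, mip130 and Su(var)3-9, which are broadly expressed regulators of chromatin or transcription, were covered over 50.5%, 100.0%, 19.8% and 99.6% of their bases in the combined list. The factors acj6, ato, amos, lz, sim, Fer1 and Eip93F, several of which direct the formation or receptor choice of sensory neurons, had no covered base. Neuronal markers were reached in part, with 5 of 15 having an end in a combined region (33.3%) and 8 a covered base (53.3%), against 57.1% and 58.5% of all protein-coding genes. In each replicate list 7 of the markers had a covered base (46.7%). These genes are long, with a median of 27650 bp, and 1.99% of their bases were covered, against 19.4% for all protein-coding genes. Of protein-coding genes of 5000 bp or more, 70.0% had a covered base, and 12.7% of their bases were covered. Among the neuronal markers the syntaxin gene Syx1A was covered over 94.5% of its bases. The classical neuronal marker elav had 1 end in a region in all 3 lists and was covered over 8.78% of its bases. Nrx-1, slo and futsch also had 1 end in a region in all 3 lists. Without an end in a region, cpx and para had covered bases in all 3 lists and Syt1 in the combined list only. ChAT, VAChT, VGlut, Sh, Rim, cac and eag had no covered base. Markers chosen for the cell line had an end in a region in 9 of 11 genes (81.8%). Pvr and SPARC were covered entirely and srp, the GATA factor of blood cells, over 73.8% of its bases, while NimC1 and Sr-CI had no covered base. Between these, Col4a1, vkg, crq and eater were covered over 15.5%, 16.6%, 24.8% and 28.8%. The list also holds Sxl and msl-2, genes of sex determination and dosage compensation, covered over 23.7% and 39.5%. At the extremes, 53 of 56 cytoplasmic ribosomal protein genes (94.6%) and 0 of 45 cuticle protein genes had an end in a combined region.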

How the data were processed

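Per the labels' protocols, cells were fixed with 1.8% formaldehyde for 10 min and sonicated chromatin was incubated with the antibody for 15 h. The submitters' processing notes name Bowtie 0.12.7. Regions lie on FlyBase release 5, per the file headers. The sources used here do not give the region caller, its threshold or its control. The authors deposited a score for each region without naming its scale, and it was used only to select and rank regions within a list. Scores above 0 mark regions typed as enriched.

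Genes came from the RefSeq table of release 6. Of 8252 protein-coding genes on the 3 arms, 45 fell outside the release 5 arms after the shift and were left out. The table gives no strand, so the planned count of start sites became a count of gene ends, with both ends in regions as its lower bound. Alternative starts inside a gene were not seen. Overlap needed 1 bp. No sequence is shown, since no sequence table or genome of release 5 was used here. Named genes were those touched by a region, those nearest to and farthest from one, the co-receptors and the listed genes. A few more were picked by hand, as well-known receptors or as receptor genes inside another gene. The gene Cpr, which encodes a P450 reductase, was left out of the cuticle list. The members, lists and points of doubt on X and 2L were chosen with earlier results or the values known. The measuring steps were tested on simulated regions. Python 3.11.15, numpy 2.4.6, pandas 2.3.3 and matplotlib 3.10.9 were used.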

Additional observations from a re-analysis of the deposited data

How the results depend on the processing

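The counts of receptor genes were the same in the combined list and in each replicate list: 10 with an end in a region, 11 with a covered base and 10 sharing the region with another gene's end. The mean over the replicates was 10, and it was 10 to 10 with each replicate left out. Only regions at or above the median score left 5 genes with an end in a region, in the combined list and as the mean of the replicates, and 6 with a covered base, while 39.0% of all protein-coding genes then had an end in one. Requiring both ends left 3 genes in the combined list and as the mean of the replicates. Of 33 receptor genes with no other gene end within 1 kb, 1 had an end in a region (3.03%), against 241 of 1594 protein-coding genes under the same condition (15.1%). At least 50% covered were 5 genes, against 35.5% of all protein-coding genes. A window of 1 kb around the ends gave 15 genes, against 62.1%. The covered share of receptor gene bases, 6.35%, was 5.40% in replicate 1, 5.72% in replicate 2, 5.80% with combined regions found in both replicates, 2.80% with regions at or above the median score, 5.21% in bins of 1 Mb where the offset peaked within 500 bp and 4.93% without the 4 genes in doubt, a setting added after seeing the data, as was the count of both ends. The other alternatives changed no count by more than 1.5 times. No paired analysis was possible because the input libraries have no region list here and no result comes from a test. Depth is unknown, so weak polymerase at receptor genes cannot be told from none.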

Other observations

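The ionotropic receptors were also divided into those known as antennal receptors and the others, a grouping chosen after the values were seen. Of the 8 antennal receptors on the 3 arms, Ir8a, Ir21a, Ir25a, Ir31a, Ir40a, Ir84a, Ir92a and Ir93a, 5 had a covered base in the combined list and in each replicate list (62.5%), against 1 of the 21 other ionotropic receptors (4.76%) and 58.5% of all protein-coding genes. One of the 5 is Ir40a, whose placement was in doubt. An end lay in a combined region in 4 of the 8 (50.0%), against 1 of the 21 others and 57.1% of all protein-coding genes. With 8 genes grouped in this way, these shares do not show that the antennal receptors resemble protein-coding genes as a whole. Ir31a was the only Ir gene with both ends in combined regions, while 30.6% of all protein-coding genes had both. The antennal genes were longer than the other ionotropic receptors, with a median of 4158 bp against 1880 bp. Lengths ran from 2516 to 24851 bp among the antennal genes and from 1638 to 2862 bp among the others. Of all protein-coding genes from 3000 to under 5000 bp long, 70.4% had a covered base and 69.8% an end in a combined region. From 1000 to under 2000 bp the shares were 55.3% and 55.2%, and from 2000 to under 3000 bp 65.6% and 65.5%. At 5000 bp or more they were 70.0% and 65.0%. The antennal genes also lay closer to an occupied end of another gene, with a median of 2.94 kb against 16.1 kb for the other ionotropic receptors. Regions covered a median of 20.6% of the 25 kb flanks of the antennal genes and 4.41% of those of the others. The part that length and neighbours have in the difference was not tested.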
